A study of Mus musculus with 2 samples.

Results

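The protein-coding genes whose symbols begin with Eif1 to Eif6, Eef1 or Eef2 are described here in G1E, a permanently growing line of mouse erythroid progenitors labelled Gata1-. They were taken by symbol, with the eIF2 kinase genes Eif2ak1 to Eif2ak4 and the Y-linked Eif2s3y left out. The rule uses no measured value, but it was set with earlier results of these data known. It gave 62 genes of 43346 gene entries in the tables, 50 with Eif symbols (initiation) and 12 with Eef symbols (elongation). This split is by symbol only, and some Eif genes, such as Eif5a and Eif4a3, act outside initiation, as given below. A further gene that fits the rule, Eef1akmt4, had no entry and was not analysed here. There were 2 libraries of poly(A) RNA, sequenced from both ends and named replicate 1 and replicate 2, in 1 group from a male, postnatal source, with no treatment named. Both cite the same cell sample, so the spread between them may be technical. No other condition was analysed here, so nothing was compared between conditions and no p-value is given. Values are TPM, an abundance scaled by transcript length and library total, unless another unit is named, and ± is the SD over the libraries (n = 2).

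Eukaryotic translation starts when eIF2 carries the initiator tRNA to the small ribosomal subunit, with eIF1, eIF1A, eIF3 and eIF5 bound. The eIF4F complex, made of the cap-binding eIF4E, the scaffold eIF4G and the helicase eIF4A, brings in the mRNA, and 4E-binding proteins hold eIF4E back until mTOR signalling releases it. After the start codon is found, eIF5B joins the large subunit, eEF1A then delivers aminoacyl-tRNAs, eEF1B recharges eEF1A, and eEF2 moves the ribosome along. Erythroid precursors depend on this machinery because most of the protein they make in the end is globin.

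The libraries held 61982634 and 80658648 expected counts over genes. In the line labelled Gata1-, Gata1 itself was listed at 4694 and 5771 counts (48.0 and 46.6 TPM). The erythroid progenitor markers Kit, Epor, Tal1, Klf1, Gfi1b, Gata2 and Zfpm1 were detected in both libraries, 7 of 7, with means from 96.7 to 1195 TPM. Of 10 markers of other cells none reached 1 TPM in both libraries, and their highest mean was 0.975 TPM, for Elane. In bulk RNA a lower level cannot be told apart from fewer cells that express a gene.

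The mRNAs of many translation proteins open with a C followed by a run of pyrimidines, the terminal oligopyrimidine (TOP) tract through which LARP1 and mTOR act. The first windows shown here span 15 bases before to 15 bases from the annotated RefSeq start (GRCm38.p6). They are shown because they hold a stretch that meets the rule given next, in members of high level. Whether such a stretch opens the mRNA in these cells was not measured. A tract was a C followed by at least 4 C or T, starting within 5 bases of the annotated start. It was searched on the transcribed strand only and is in capitals. The C could lie inside a longer run of C or T, and the C nearest the start was taken. The first 4 are the highest with a tract among the 46 members with a listed start. Eif4g2 and Eif4ebp1, which are of higher level than these 4, had no listed start and were not searched. Eif2s3x was added after its sequence was seen, for its length.
Eef1a1: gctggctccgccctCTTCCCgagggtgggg
Eif4g1: cgccagcgcagctccgCCCTCTgcgccggt
Eif3f: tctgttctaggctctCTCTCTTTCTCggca
Eif2b2: tttcaccgagcggaagttgaCCTCTCTCgg
Eif2s3x: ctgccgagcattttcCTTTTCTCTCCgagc
These lie at chr9:78481710-78481739 (minus strand), chr16:20672712-20672741 (plus), chr7:108934400-108934429 (plus), chr12:85219466-85219495 (plus) and chrX:94212637-94212666 (minus). In Eif3f and Eif2s3x the marked 11 bases begin at the annotated start itself, but each is part of a longer pyrimidine run that begins before that start. The leader of Eif3f in GENCODE M21 is 15 bases long, and the window ends just before its start codon. The window of Eif2s3x also ends close to its start codon, but its M21 leader is 76 bases long. M21 and RefSeq thus place the start of Eif2s3x differently.

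Among members with a listed start, the highest without a tract by that rule at that start are shown next.
Eef2: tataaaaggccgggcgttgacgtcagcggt
Eif5a: aagtaccgaagccgggatggttgtaatccg
Eif1ax: gaggaggaggagggcggggagaagccccgc
Eif1: gcgctggcgtcacaggggcggctatataag
Their positions are chr10:81176616-81176645 (plus), chr11:69921944-69921973 (minus), chrX:159372163-159372192 (plus) and chr11:100319934-100319963 (plus). A listed start can differ from the start that these cells use, and no start was measured here. A window without a tract therefore does not show that the mRNA lacks one. Eif5a has several listed starts, and the first is shown.

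A RefSeq start was listed for 46 members. Of these, 10 (21.7%) had a tract, against 21.2% of all 27025 genes with a listed start and 23.7% of 6878 detected protein-coding genes. Cytosolic ribosomal protein genes, the best known TOP genes, had one in 29 of 62 (46.8%). With the C required to lie exactly at the listed base, inside a longer run or not, a tract was found in 2 members (4.35%) and 3.01% of all genes. With at least 7 pyrimidines after the C, the counts were 6 members (13.0%) and 5.17% of all genes. Allowed to start within 15 bases, it was found in 18 members (39.1%) and 44.9% of all genes. The share of members was thus near that of all genes at the main setting, lower with the wider reach and higher with the longer tract. The 10 members with a tract had median levels of 106 and 132 TPM and the other 36 had 83.3 and 87.3 TPM.

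Translation factors can also be read at their own start codons. The ribosome reads a start codon best with A or G at base 3 before it and a G right after it, the Kozak context. The sequences run from 12 bases before the A of ATG to base 18 counted from that A, taken from the complete coding transcript of highest level in GENCODE M21, with the base at 3 before, the codon and the base after it in capitals. The first 2 are shown as weak contexts, with neither favoured base, and the others as strong contexts of elongation factors and eIF5A.
Eif1: gaatcgtatCgtATGTccgctatccagaac
Eif1b: cactagtgtCgcATGTccactatccagaac
Eef1a1: ttcaaagcaAaaATGGgaaaggaaaagact
Eef2: ccatccgccAccATGGtgaacttcacagta
Eif5a: aagcctcttAaaATGGcagatgatttggac
The start codons lie at chr11:100320130-100320132 (plus), chr9:120492811-120492813 (plus), chr9:78480652-78480654 (minus), chr10:81176727-81176729 (plus) and chr11:69919313-69919315 (minus) on GRCm38. Eif1 encodes the factor that rejects poor start codons, and its own mRNA is known for a poor context. Among 56 detected members with a readable context, 28 were strong and 4 (7.14%) were weak. Over 8292 detected protein-coding genes 47.6% were strong and 6.10% weak. The weak ones were Eif1, Eif1b, Eif3b, a scaffold subunit of eIF3, and Eef1akmt1, an eEF1A methyltransferase.

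The leaders of the members held few upstream ATGs. None was present in 42 of the 56 (75.0%), against 52.9% of detected protein-coding genes, and the median leader was 123 bases against 157. The exceptions included Eif5, the GTPase-activating partner of eIF2, with 5 upstream ATGs in a leader of 626 bases. Eif4g3 had 6 in 606 bases. Shorter leaders have fewer places for an ATG, and the part of length in the difference was not tested.

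The translation factors formed a highly expressed set with a wide range. Of the 62, 58 (93.5%) reached 1 TPM in both libraries, against 40.0% of 21474 protein-coding genes. Their median levels were 83.3 and 87.3 TPM, where detected protein-coding genes had 17.0 and 19.0. Together they held 1.77% and 1.94% of all TPM (1.86 ± 0.121%, n = 2). The level was concentrated in a few genes: the highest 5 held 52.1% and 56.3% of the members' TPM, and the highest 10 held 72.8% and 73.4%. Means of at least 1000 TPM were reached by 6 members, at least 100 by 28 and at least 10 by 49.

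**Figure D1:**
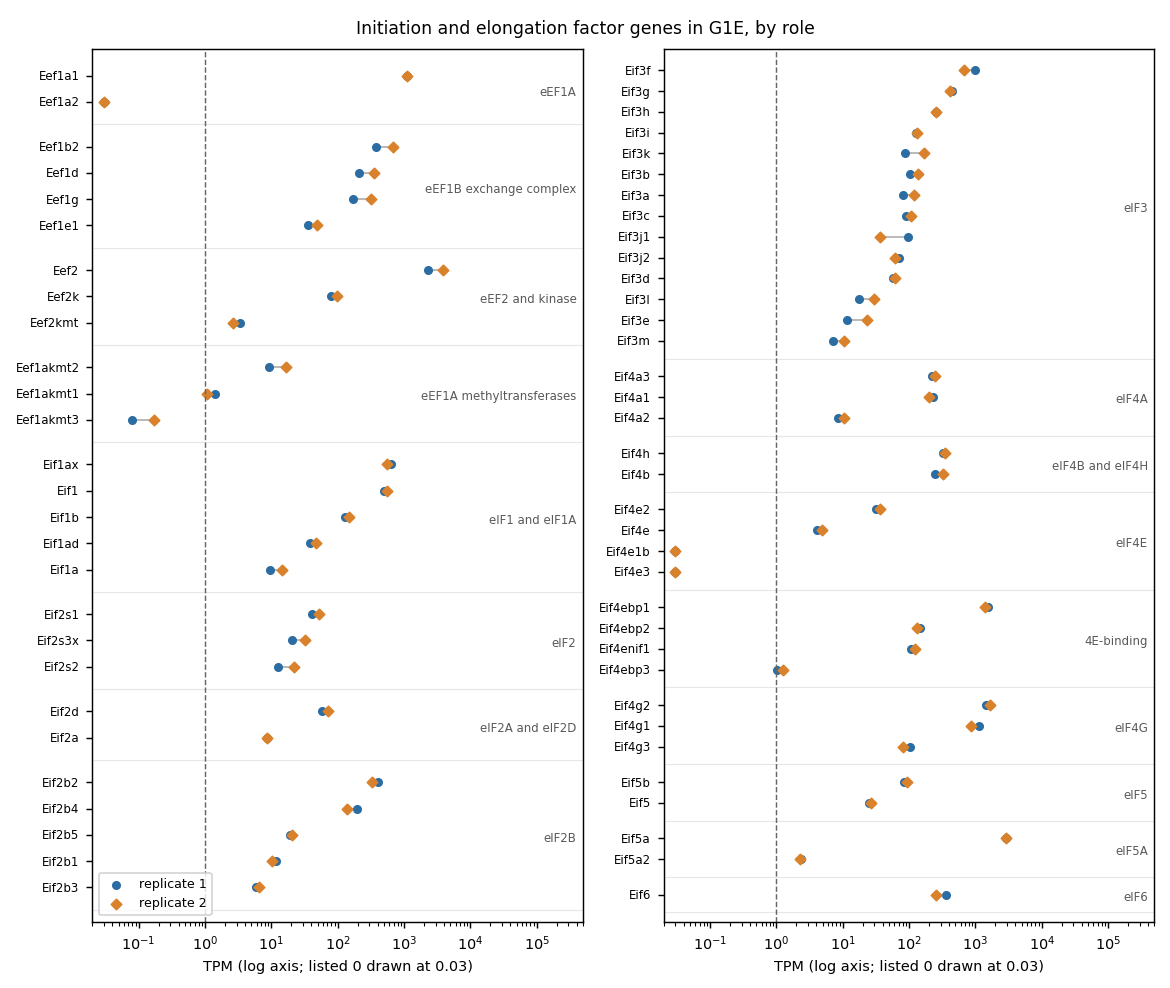
TPM of each of the 62 genes (log axis) in replicate 1 (circles) and replicate 2 (diamonds), grouped by role, with the dashed line at 1 TPM and a listed value of 0 drawn at 0.03. The 2 libraries lie close together for most genes, while genes of 1 role can lie far apart, as Eif4ebp1 (1458 TPM on average) and Eif4ebp3 (1.16 TPM) do.

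The highest of the Eef genes was Eef2, the translocase, at 2273 TPM in replicate 1 and 3869.5 in replicate 2 (3071 ± 1129). Eef1a1, the tRNA carrier, stood at 1107 and 1093 (1100.3 ± 9.98). Eef2 was thus the higher of the pair in both libraries, by 2.05-fold and 3.54-fold. The exchange complex eEF1B followed, with Eef1b2 at 374 and 675, Eef1d at 213 and 349, and Eef1g at 173 and 314. Eef1e1, which belongs to the multi-synthetase complex despite its symbol, was at 35.7 and 49.2. Eef2k, the kinase that switches eEF2 off, was at 79.1 and 96.9, so Eef2 exceeded it by 28.7-fold and 39.9-fold over all transcripts. Complete coding Eef2k transcripts had only 22.6 and 33.4 TPM, while all of the Eef2 TPM was complete coding, so the distance was wider there.

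The muscle and neuron form of the tRNA carrier, Eef1a2, had 0 counts in both libraries. A count of 0 allows up to 3 counts, which is 0.0277 TPM in replicate 1 and 0.0219 in replicate 2, so Eef1a1 was at least 39998-fold and 49901-fold higher. The bound covers counting error only. The methyltransferases of the elongation factors were low: Eef1akmt2 was at 9.10 and 16.6, Eef2kmt at 3.41 and 2.65, and Eef1akmt1 at 1.42 and 1.09. Eef1akmt3 was below 1 TPM in both, at 0.0800 and 0.170, from 12 and 31 counts.

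Among the factors that open initiation, Eif1 was at 507 and 553 (529.7 ± 32.8) and its paralogue Eif1b at 129 and 148 (138 ± 13.0). Eif1ax was listed at 648 and 547, and its autosomal paralogue Eif1a at 9.58 and 14.6. The order of this last pair depends on which transcripts are counted, as given below. Eif1ad, an eIF1A domain protein of ribosome assembly, was at 38.0 and 46.6.

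eIF2, which carries the initiator tRNA, had all 3 subunits below the median of the members over all transcripts. Its alpha subunit Eif2s1, the site of stress phosphorylation, was at 41.3 and 51.5, its beta subunit Eif2s2 at 12.5 and 21.6, and its GTP-binding gamma subunit Eif2s3x at 20.6 and 32.2. The highest and lowest subunits differed by 3.31-fold and 2.39-fold, in the order alpha, gamma, beta in both libraries. Over complete coding transcripts Eif2s1 (mean 46.4) was above the median member (38.7). Eif2s3x (26.4) and Eif2s2 (15.8) stayed below it. GC content of the leading transcript was 40.8% for Eif2s1 and 42.1% for Eif2s2, where the median of 57 detected members was 51.5%, and its part in these levels was not tested.

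The exchange factor eIF2B was far less even. Eif2b2 (beta) stood at 401 and 326 and Eif2b4 (delta) at 194 and 139. Eif2b5, the catalytic epsilon subunit, was at 19.3 and 20.4, Eif2b1 (alpha) at 11.7 and 10.2, and Eif2b3 (gamma) at 5.93 and 6.54. The range was 67.6-fold and 49.8-fold over all transcripts, and 15.4-fold and 18.1-fold over complete coding transcripts, with Eif2b2 highest and Eif2b3 lowest in both measures. Transcripts without a match in GENCODE M21 held 88.8% and 83.5% of the Eif2b4 TPM. Its complete coding transcripts had 21.6 and 22.9 TPM, close to Eif2b5, and those of Eif2b2 had 73.6 and 113. The 5 subunits are known to sit in equal numbers in the complex.

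eIF3, the largest initiation factor, was counted over 12 subunits, leaving aside the loosely bound eIF3J. Eif3f was the highest at 991 and 684 (838 ± 217), followed by Eif3g, an RNA-binding subunit, at 448 and 411, and Eif3h at 251 and 259. The scaffold subunits Eif3a, Eif3b and Eif3c lay near each other, with means of 101, 122 and 98.3. Low members were Eif3l at 17.6 and 29.4, Eif3e at 11.8 and 23.4, and Eif3m at 7.22 and 10.3. Eif3f exceeded Eif3m by 137-fold and 66.3-fold, and by 143-fold and 66.4-fold over complete coding transcripts. The wide range was therefore as large in coding transcripts alone.

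**Figure D2:**
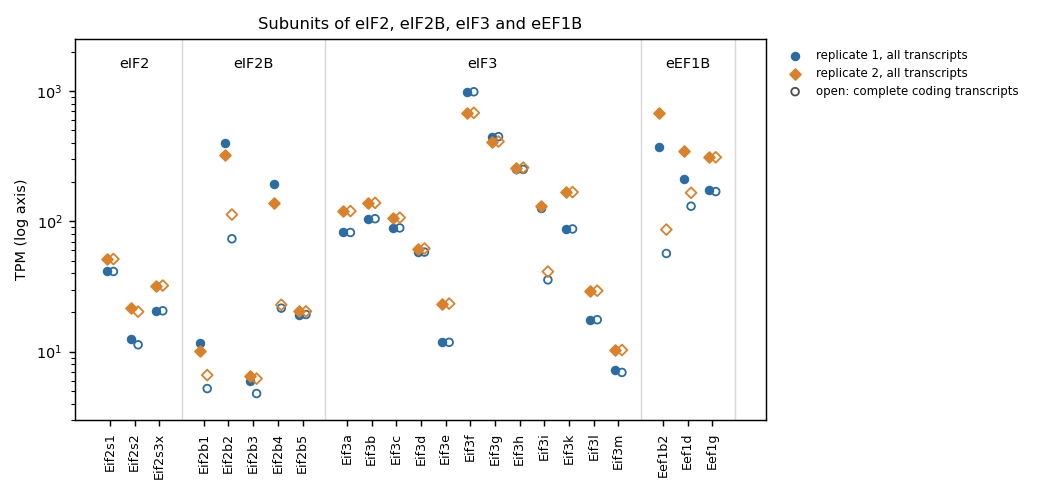
TPM (log axis) of each subunit of eIF2, eIF2B, eIF3 and eEF1B, in replicate 1 (circles) and replicate 2 (diamonds), over all transcripts (filled) and over complete coding transcripts only (open). Most eIF3 subunits keep their level when only coding transcripts are counted, while Eif2b1, Eif2b2, Eif2b3, Eif2b4, Eif3i, Eef1b2 and Eef1d have under 90% of it there.

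The cap-binding step paired a low eIF4E with high partners. Eif4e, the main cap-binding protein, was at 4.06 and 4.89 (4.47 ± 0.587), from 622 and 946 counts, at the 19.3 percentile of detected protein-coding genes. Eif4ebp1, the 4E-binding protein released by mTOR signalling, was at 1537 and 1379.5, which is 378-fold and 282-fold the level of Eif4e. Eif4e2, the cap-binding homologue that represses translation with GIGYF proteins, was at 31.7 and 36.2, or 7.80-fold and 7.41-fold the level of Eif4e. Eif4e1b, known from oocytes, and Eif4e3 had 0 counts in both libraries. The leading Eif4e transcript has a GC content of 40.5%, and the part of GC content in its level was not tested. These are RNA levels per length, and the protein amounts were not measured.

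The rest of the 4E-binding group followed Eif4ebp1 at a distance. Eif4ebp2 was at 149 and 134, Eif4enif1, the shuttling protein of eIF4E, at 106 and 125, and Eif4ebp3 at 1.03 and 1.28. The Eif4ebp3 counts of 34.5 and 54.1 had posterior SDs of 3.05 and 3.47 counts in the deposited tables, so part of its reads was shared with another feature.

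The helicase genes Eif4a1 and Eif4a3 were close, at 229 and 199 against 219 and 243, and their order differed between the libraries. That holds over all transcripts only: complete coding Eif4a1 transcripts had 69.2 and 86.9 TPM and those of Eif4a3 155 and 179.5. Eif4a3 is the exon junction helicase rather than a part of eIF4F. Eif4a2 was at 8.61 and 10.6. The helicase cofactors Eif4h (329 and 344) and Eif4b (243 and 325) were above both leading helicases in each library. The scaffold Eif4g1 was at 1140.2 and 863, Eif4g2, the scaffold that lacks the eIF4E site, at 1449 and 1684, and Eif4g3 at 105 and 82.0.

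Eif5a, which helps ribosomes through stretches such as polyproline and needs the amino acid hypusine, had 2865 and 2907 TPM (2886 ± 29.8). It was above Eef2 in replicate 1 and below it in replicate 2, so the order of the 2 highest members was not settled by these libraries. Its paralogue Eif5a2 was at 2.37 and 2.25, so Eif5a was 1209-fold and 1292-fold higher. The subunit joining factor Eif5b was at 84.4 and 92.6, Eif5 at 25.1 and 26.5, and Eif6, which keeps free large subunits apart from small ones, at 365 and 251. Of the alternative carriers of initiator tRNA, Eif2d was at 57.2 and 71.2 and Eif2a at 8.49 and 8.57.

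In 6 of 9 paralogue families the same gene held most of the TPM in both measures, over all transcripts and over complete coding ones. Eef1a1 held all of its pair, Eif5a 99.9%, Eif4a1 96.4% and 94.9% of Eif4a1 and Eif4a2, Eif4ebp1 91.1%, Eif4e2 88.6% and 88.1%, and Eif1 79.7% and 78.9%. In the other 3 the leading gene depended on the measure or the library. Eif4g2 held 53.8% and 64.1% of the eIF4G family over all transcripts but 11.8% and 12.5% over complete coding ones, where Eif4g1 held 81.3% and 78.2%. Eif1ax held 98.5% and 97.4% of its pair over all transcripts and 16.3% and 13.9% over complete coding ones, which puts Eif1a ahead. By expected counts, with no length scaling, Eif4g1 held 68.7% and 64.2% of the eIF4G family.

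**Figure D3:**
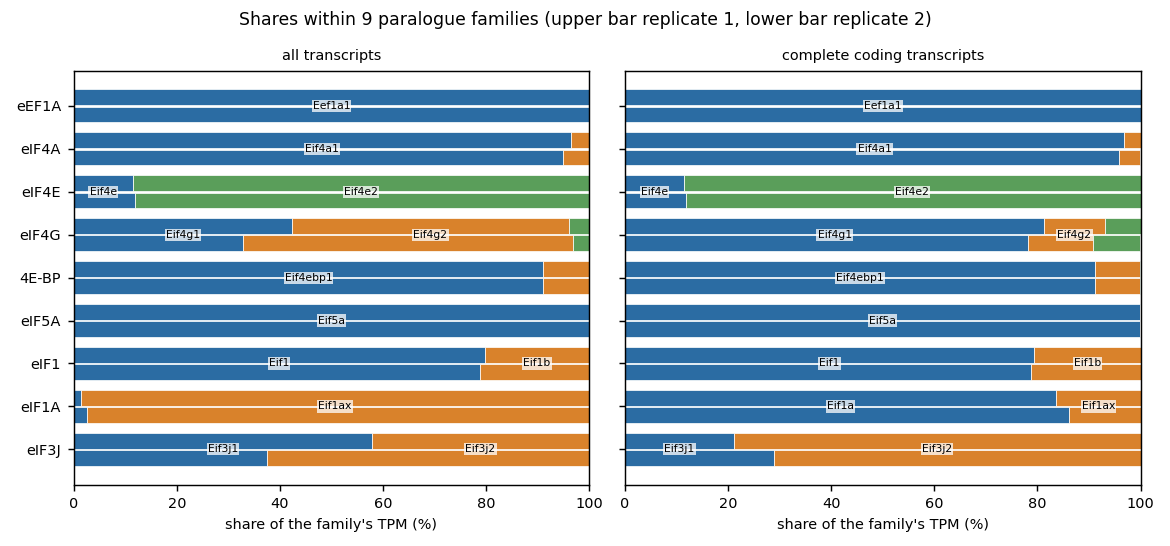
Share of each paralogue family's TPM (percent) held by its genes, over all transcripts (left) and over complete coding transcripts (right), with replicate 1 as the upper and replicate 2 as the lower bar of each family. The leading gene differs between the panels for eIF4G (Eif4g2, then Eif4g1) and eIF1A (Eif1ax, then Eif1a), and in replicate 1 for eIF3J.

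Eif3j1 and Eif3j2 are near-identical copies whose reads the authors' counting divided by a model, so their split depends on that model. Eif3j1 held 57.8% of the pair in replicate 1 and 37.5% in replicate 2, and 21.1% and 28.9% over complete coding transcripts. Eif3j1 and Eif3j2 both had posterior SDs of 58.2 and 77.5 counts, which are small beside the 7429 and 9573 counts for Eif3j1. By expected counts, with no length scaling, Eif3j2 was ahead in both libraries. Within Eif3j1 the short Eif3j1-202 held 80.5% of the TPM in replicate 1 and 32.4% in replicate 2. The part of this in the change of the pair's TPM shares was not tested. Of the 62 members, 43 had a posterior SD of 0 in both libraries, 40 with counts in both and 3 with none.

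The deposited transcript tables divide the level of each gene among 315 transcripts of the members. A transcript was called complete coding when GENCODE M21 gives it as protein coding with neither end of the mRNA or reading frame missing. The leading transcript was complete coding in 44 of the 58 detected members, a retained intron form in 5, a processed transcript in 4, coding with an end missing in 4 and without a match in M21 in 1. The median share of TPM in complete coding transcripts was 99.9%, at least 90% in 35 members and under 50% in 17. In 20 members the leading transcript was shorter than 1000 bases.

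Eif1ax was the extreme case. Eif1ax-202, a retained intron form of 416 bases, took 9821 of 10346 counts in replicate 1 and 10339 of 11176 in replicate 2, and 99.7% and 99.6% of the TPM. Complete coding Eif1ax transcripts were left with 1.87 and 2.36 TPM. Eif4g2-203, a coding form of 742 bases with its end missing, took 91.7% and 92.8%, which left 36.9 and 42.2 TPM in complete coding Eif4g2 transcripts. Eif5b-202, a retained intron form of 5788 bases, took 88.9% and 89.1%. Unlike the others it is a long transcript. Whether the reads of short forms come from such molecules or from the long transcripts that overlap them was not tested.

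Short forms also led other genes. Eif2b2-206 (338 bases) took 77.8% and 61.3%, Eif6-204 (373 bases) 73.1% and 58.1%, Eef2k-206 (800 bases) 69.2% and 63.9%, and Eif3i-202 (734 bases) 65.4% and 66.8%. Eef1b2-202, a processed transcript of 815 bases, took 57.5% and 59.9%, and Eef1b2-206, a target of nonsense-mediated decay, took 25.1% and 22.1%. Eef1b2 was the highest of the 3 eEF1B subunits over all transcripts and the lowest over complete coding ones. By contrast Eef2 had all of its TPM in Eef2-201, of 3098 bases, and Eif4ebp1 in Eif4ebp1-201, of 981 bases. Eif5a was divided among complete coding transcripts, with Eif5a-210 at 71.1% and 65.0% and Eif5a-213 at 23.6% and 29.9%.

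**Figure D4:**
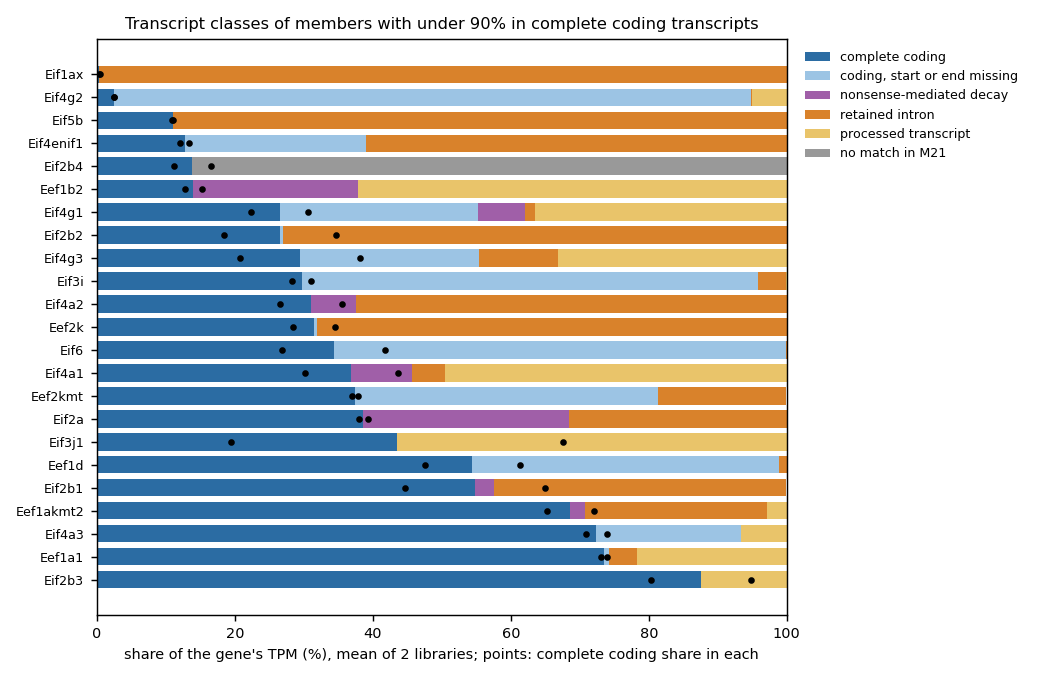
Share of each gene's TPM (percent, mean of 2 libraries) by annotated transcript class, for the detected members with under 90% in complete coding transcripts, ordered by that share, with points for the complete coding share in each library. Eif1ax and Eif5b are mostly retained intron forms, Eif4g2 mostly coding forms with an end missing, and the points of Eif3j1 lie far apart (19.5% and 67.6%).

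Counted over complete coding transcripts, the order of the members changed below the top. Eef2 and Eif5a (2884 ± 29.3) stayed the highest by mean, with Eif5a above Eef2 in replicate 1 and below it in replicate 2, and Eif4ebp1 (1458 ± 111), Eif3f (837 ± 218), Eef1a1 (809 ± 1.49) and Eif1 (522 ± 33.6) followed. Eif4g1 was then number 10 in order at 259.6 ± 6.58. In this measure 57 members reached 1 TPM in both libraries, and the median member was at 38.7 TPM as the mean of the libraries, against 85.3 over all transcripts. The leading transcript was the same in both libraries for 52 of the 58. It differed for Eif2b1, Eif3j1, Eif4a1, Eif4a2, Eif4g1 and Eif4g3.

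The libraries were compared gene by gene with expected counts scaled by TMM, a factor that sets the bulk of genes equal, for the 59 members with at least 10 counts in either library. None differed 2-fold, where 7.12% of all 11636 genes did. The log2 ratio of replicate 2 to replicate 1 ran from -0.70 to 0.87, with a median of 0.04 for the members and 0.01 for all genes. At 1.5-fold, 9 members (15.3%) differed, near the 19.0% of all genes. Of these, 8 (13.6%, against 12.4% of all genes) were higher in replicate 2, among them Eef2, Eef1b2, Eef1g, Eif2s2, Eif3e and Eif3k. Eif3f (1 of 59, against 6.51% of all genes) was higher in replicate 1.

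Directions are given by group, and no difference between groups was tested. Of 11 tested Eef genes 8 were higher in replicate 2 (median log2 ratio 0.43), and of 48 Eif genes 23 were (median -0.02), where 51.3% of all genes were. All 3 eEF1B subunit genes were higher in replicate 2, by 0.43 to 0.70, and so was Eef1e1 (0.30). Eef1a1 was not, at -0.17. All 3 eIF2 subunits were higher in replicate 2 too, by 0.16 to 0.66. These directions were the same with DESeq2 size factors, library totals and TPM, except for the Eif genes as a group. Library totals put 34 and TPM 33 of the 48 Eif genes higher in replicate 2, and again 8 of the 11 Eef genes. Those 2 scalings put 63.1% and 63.0% of all genes higher in replicate 2, with medians of 0.13 and 0.15 in place of 0.01. Since both libraries are of 1 group, these differences measure the spread of replicates and nothing else that the labels name.

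TPM added a spread that the counts did not have. Eif3j1 was listed at 95.7 TPM in replicate 1 and 36.5 in replicate 2, a log2 ratio of -1.39, while its scaled counts gave -0.13. Its effective length, the length over which a read could start, was listed as 1390 and 3706 bases. The short Eif3j1-202 held 80.5% of its TPM in replicate 1 and 32.4% in replicate 2. Eif6 and Eif4g3 likewise had log2 ratios of -0.54 and -0.36 in TPM and -0.29 and 0.19 in counts. By TPM 2 members, Eif3j1 and Eef1akmt3, passed 2-fold, against 9.96% of all genes.

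**Figure D5:**
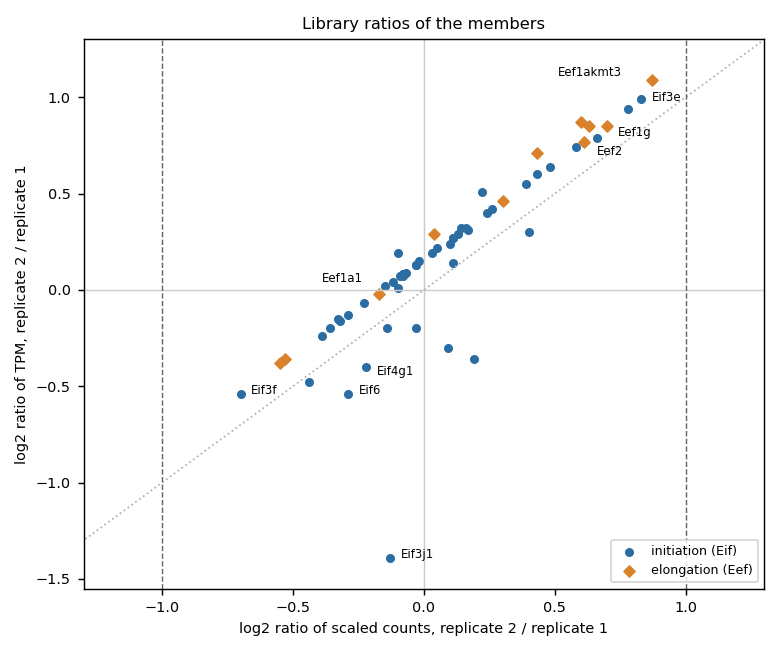
Log2 ratio of replicate 2 to replicate 1 for the 59 members, as TMM-scaled counts (horizontal axis) and as TPM (vertical axis), with Eif genes as circles, Eef genes as diamonds, dashed lines at 2-fold in counts and a dotted line where both ratios are equal. No gene lies beyond 2-fold in counts, and Eif3j1 (-0.13 and -1.39) lies farthest from the dotted line.

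Genes that act with these factors were described from fixed lists. Of 51 such genes found in the tables, 48 reached 1 TPM in both libraries, again against 40.0% of protein-coding genes. The poly(A)-binding proteins that touch eIF4G were among the highest, Pabpc1 at 2394 and 2077 and Pabpc4 at 1540.0 and 1131. All 9 genes of hypusine and diphthamide formation, the modifications of eIF5A and eEF2, were detected. The hydroxylase Dohh was at 225 and 196, the synthase Dhps at 41.0 and 27.6, and the diphthamide gene Dph5 lowest at 1.76 in both.

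All 7 regulators of eIF4F were detected. Mknk2, a kinase of eIF4E, was at 514 and 459 and its paralogue Mknk1 at 34.9 and 40.4. Larp1, which binds TOP mRNAs, was at 109 and 124, Pdcd4, an inhibitor of eIF4A, at 61.8 and 81.6, and Mtor at 8.82 and 11.4. All 4 eIF2 kinases were detected, and the haem-regulated kinase Eif2ak1 was at 18.8 and 13.3.

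Release and recycling factors were detected in 7 of 8 cases. Gspt1, the GTPase of termination, was at 239 and 171 and Etf1, which reads stop codons, at 53.0 and 50.9, while Gspt2 was listed at 0. The mitochondrial factors were detected in 9 of 10 cases with list medians of 6.30 and 8.75, under the medians of the cytosolic members. Tufm, the mitochondrial tRNA carrier, was at 56.5 and 95.5, and Mtrf1 was below 1 TPM (0.445 ± 0.0636).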

How the data were processed

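The authors deposited, quantification tables per gene and per transcript of each library, made from a transcriptome alignment on assembly mm10 with genome annotation M4, per the file headers and the deposited descriptions. Not given in the sources used here are the aligner, the counting tool and the use of strand, so reads of overlapping genes may be divided between them. The deposited expected counts are estimated read pairs in which shared reads are divided by a model. The deposited TPM and FPKM values are scaled by effective length and library total, per the file headers. The percent of a gene's TPM given to a transcript, the posterior SD (a score of uncertainty in counts) and posterior means are the authors' own columns.

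Of 43346 entries, 42462 (98.0%) matched GENCODE M21 by identifier without version, which gave symbols, types and transcript classes. Levels are the deposited TPM. Library ratios used rounded expected counts with TMM scaling (factors 0.96 and 1.04, edgeR 4.0.16, R 4.3.3), with 10 counts in either library as the minimum and 3 counts in place of 0. The ratios were checked on simulated counts with known changes. Those counts held counting error only, and the changes were above 2-fold in genes with many counts. The check therefore does not cover the spread of replicates or genes of low count. Counting precision is set by 61982634 and 80658648 expected counts, and the limits for a count of 0 cover counting error only. RefSeq starts (GRCm38.p6) and M21 transcripts gave the sequences. Alternatives were posterior means, FPKM, counts, coding transcripts, other thresholds, DESeq2 1.42.0 size factors and each library alone. Any member could be named, and other genes only from the fixed lists or as pseudogenes of a member by symbol. The members, lists and rules were chosen with earlier results of these data known. Other software was SciPy 1.17.1 (correlations), matplotlib 3.10.9 (figures), NumPy 2.4.6, pandas 2.3.3 and Python 3.11.15.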

Additional observations from a re-analysis of the deposited data

Results flagged for a closer look

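Counts were also listed for pseudogenes of the members, which no comparison above used and which have no control samples. Above the 3 counts that a count of 0 allows were Eif4a-ps4, with 302 counts in replicate 1 and 385 in replicate 2 (5.04 and 5.09 TPM), and Eif3s6-ps2, with 14 and 17 counts (3.33 and 3.37 TPM). The posterior SDs of Eif4a-ps4, 11.9 and 13.9 counts, equal those of Eif4a1, and those of Eif3s6-ps2, 2.73 and 2.67, equal those of Eif3e, so reads of each pair were divided by the model. Groups of 2 are too small for a check of single samples.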

How the results depend on the processing

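The number of detected members was between 53 and 58 under every alternative tried. Complete coding transcripts alone, chosen after seeing the data, gave a share of TPM of 1.35% in place of 1.86%, a median of 38.7 TPM in place of 85.3, a subunit range of 16.8-fold in place of 58.7 for eIF2B and of 3.29-fold in place of 2.15 for eEF1B, and family shares of 12.1% for Eif4g2, 15.1% for Eif1ax and 75.0% for Eif3j2. All transcripts typed protein coding gave 71.5%, 15.1% and 75.0% for these, in place of 58.9%, 98.0% and 52.3%. Expected counts with no length scaling gave the members 2.66% and moved family shares to 94.4% for Eif4a1 (from 95.7%), 78.8% for Eif4e2 (88.4%), 28.5% for Eif4g2, 84.9% for Eif4ebp1 (91.1%), 99.7% for Eif5a (99.9%), 85.3% for Eif1 (79.3%) and 88.9% for Eif1ax. Posterior means gave 87.8% for Eif4e2. The median was 75.8 in FPKM, and 95.2 TPM over detected members only. The log2 ratio of Eef1a1 to Eef1a2, a bound of 15.45, was 10.11 with a pseudocount of 1 TPM, 13.43 with 0.1 TPM and 16.73 by posterior means. Members that differed between the libraries numbered 2 by TPM and 9 at 1.5-fold, and 0 with the other scalings, minimums and at 4-fold. Members with a pyrimidine tract numbered 2 exactly at the start, 18 within 15 bases (39.1%, against 44.9% of all genes) and 6 with at least 7 pyrimidines, in place of 10. Each library alone stayed within 1 SD, which 2 values cannot exceed. No paired analysis was possible because the libraries form 1 group. Depth limits the statement on undetected genes to 3 counts per library.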

Other observations

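GC content and length of the leading transcript varied with level across the members. The leading transcript is the one of highest mean TPM, so level itself picked the GC content and length used. The correlations cannot tell a relation with level apart from that choice. Eif2b4, whose leading transcript has no match in M21, was left out. Over 57 detected members the Spearman correlation of GC content with TPM was 0.48 in replicate 1 and 0.43 in replicate 2, and over 8500 detected protein-coding genes it was 0.40 and 0.36. That of length with TPM was -0.26 and -0.22 over the members and -0.29 and -0.29 over those genes. Genes are not independent replicates, and the points share a library and the authors' length model, so no p is given. The 6 members of lowest GC content were Eif5a2 (38.8%), Eif3j2 (40.1%), Eif4a2 (40.2%), Eif3e (40.3%), Eif4e (40.5%) and Eif2s1 (40.8%). Their mean levels were 2.31, 65.3, 9.61, 17.6, 4.47 and 46.4 TPM in that order.

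The 20 cytosolic aminoacyl-tRNA synthetase genes, which charge the tRNAs that eEF1A carries, were all detected, with medians of 58.7 and 75.7 TPM. They held 0.279 ± 0.0148% of all TPM (n = 2), where the translation factors held 1.86 ± 0.121%.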
